A study of Homo sapiens with 24 samples.

Results

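N6-methyladenosine (m6A) peaks were described on 9 long non-coding RNAs (lncRNAs), MALAT1, NEAT1, NORAD, TUG1, OIP5-AS1, KCNQ1OT1, GAS5, SNHG1 and LINC00261, along pancreatic differentiation of human pluripotent stem cells. A peak belonged to one of them when its list of gene identifiers held the Ensembl identifier of that lncRNA. Of 228472 peaks in 6 lists, 323 met this rule, and 8 of the 9 lncRNAs had at least 1 peak. In m6A-seq, fragments precipitated with an m6A antibody (IP) are sequenced beside unprecipitated fragments (input), and a peak is a stretch where IP exceeds input.

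All 24 libraries are labelled as MEL1, a human embryonic stem cell line. The study names its cells MEL1 INS GFP/W, a line with a GFP reporter at 1 allele of the insulin gene. There were 2 IP and 2 input libraries for each of 6 populations. In batch 1, hPSC (undifferentiated cells grown on CF1 feeder cells), definitive endoderm (DE), pancreatic progenitors (PP) and islet-like organoids (hILO) carried no ALKBH5 knockout, and their libraries were made from poly(A)-selected mRNA with a SYSY antibody. Batch 2 held PP labelled wild type (WT PP) and PP in which ALKBH5, an m6A demethylase, was knocked out (A5-KO PP), made from total RNA with a Millipore antibody, rRNA-depleted input and another library kit. The knockout was made with CRISPR-Cpf1 aimed at the first exon of ALKBH5, and the labels name a single knockout genotype. One list was deposited per population, pooled over its libraries, so no spread between replicates could be given and no difference between populations was tested. Where 6 values follow each other without names, they stand in list order, batch 1 by stage and then wild type before knockout.

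Methylated adenosines are written by a nuclear methyltransferase complex at a short sequence motif, read by binding proteins and erased by ALKBH5 and FTO. On lncRNAs the mark is known from abundant nuclear transcripts such as MALAT1, where it can open a hairpin for protein binding. The 9 lncRNAs differ in place and role. MALAT1 and NEAT1 are neighbouring nuclear transcripts, of nuclear speckles and paraspeckles. NORAD is cytoplasmic and binds PUMILIO proteins, TUG1 and OIP5-AS1 (also called cyrano) are broadly expressed, KCNQ1OT1 is an imprinted transcript antisense to KCNQ1, GAS5 and SNHG1 carry small nucleolar RNAs in their introns, and LINC00261 is transcribed beside FOXA2 in endoderm.

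One stretch per lncRNA is shown as sequence, so that the peaks can be read as RNA positions. For each lncRNA the region found in the most lists was taken, and within its most widely covered bases the 150 nt window with the most GGAC was chosen (the whole stretch where it was shorter). Among windows with equal GGAC, the one with the most DRACH was taken. Sequences are GRCh38, transcript strand, 5′ to 3′, and capitals mark DRACH, the 5-base m6A motif in which D stands for any base but C, R for a purine and H for any base but G. The MALAT1 window is chr11:65500334-65500483 on the plus strand, inside bases covered in all 6 lists.
MALAT1: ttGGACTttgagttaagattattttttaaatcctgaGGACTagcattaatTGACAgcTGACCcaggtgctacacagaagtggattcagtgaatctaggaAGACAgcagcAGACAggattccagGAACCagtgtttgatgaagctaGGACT
The NEAT1 window is chr11:65424549-65424673, plus strand, covered in 5 lists.
NEAT1: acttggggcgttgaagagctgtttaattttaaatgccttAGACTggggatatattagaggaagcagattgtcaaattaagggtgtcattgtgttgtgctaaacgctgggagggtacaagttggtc
The NORAD window is chr20:36049871-36050020, minus strand, covered in all 6 lists.
NORAD: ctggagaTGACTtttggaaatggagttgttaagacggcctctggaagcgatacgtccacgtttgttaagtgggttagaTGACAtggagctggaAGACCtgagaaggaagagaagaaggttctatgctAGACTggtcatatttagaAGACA
The TUG1 window is chr22:30978656-30978805, plus strand, covered in all 6 lists.
TUG1: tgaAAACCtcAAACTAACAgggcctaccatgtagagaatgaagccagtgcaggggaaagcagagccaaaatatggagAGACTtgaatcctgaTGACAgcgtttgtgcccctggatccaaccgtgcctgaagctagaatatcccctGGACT
The OIP5-AS1 window is chr15:41298323-41298472, plus strand, covered in 5 lists.
OIP5-AS1: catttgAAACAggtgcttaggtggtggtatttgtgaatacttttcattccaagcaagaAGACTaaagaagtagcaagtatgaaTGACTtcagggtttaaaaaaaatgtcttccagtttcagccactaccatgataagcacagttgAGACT

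The KCNQ1OT1 window is chr11:2696303-2696377, minus strand, near the 5′ end of the RNA, in the region found in the most lists (5), where any 1 base was covered by at most 3 of them. Elsewhere on this RNA 600 nt were covered by 4 lists, so the window is not from its most widely covered bases.
KCNQ1OT1: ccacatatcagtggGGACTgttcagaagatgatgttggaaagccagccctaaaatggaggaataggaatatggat
The SNHG1 window is chr11:62852884-62853033, minus strand, and was covered in WT PP and A5-KO PP.
SNHG1: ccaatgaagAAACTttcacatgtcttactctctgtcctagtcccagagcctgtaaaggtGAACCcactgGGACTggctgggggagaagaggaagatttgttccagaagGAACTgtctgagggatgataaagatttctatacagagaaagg
The LINC00261 window is chr20:22564534-22564683, minus strand, covered in the 5 lists other than hPSC.
LINC00261: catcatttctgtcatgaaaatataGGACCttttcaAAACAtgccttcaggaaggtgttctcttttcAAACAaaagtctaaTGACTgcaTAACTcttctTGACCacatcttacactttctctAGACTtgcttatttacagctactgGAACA
These windows hold 8 DRACH sites in MALAT1, 1 in NEAT1, 5 in NORAD, 6 in TUG1, 4 in OIP5-AS1, 1 in KCNQ1OT1, 4 in SNHG1 and 8 in LINC00261. The choice of windows favoured high counts, and the windows of NEAT1 (125 nt) and KCNQ1OT1 (75 nt) are shorter, so the counts do not compare the RNAs. All windows lie in exons of at least 1 GENCODE 44 transcript of their gene.

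The read counts, log2 enrichment and p-values deposited beside each peak could not be tied to the peaks on these lncRNAs and were left out for nearly all of them. Each peak carries a running number that mostly follows the order of Ensembl gene identifiers, and the input reads of peaks with identical coordinates in 2 lists should rise and fall together. Between hPSC and DE they did for hPSC peak numbers 9000 to 20999, where Spearman's rho across peaks ranged from 0.84 to 0.89 in bins of 3000 numbers. It was 0.14 for numbers 30000 to 32999, 0.08 for 33000 to 35999 and -0.07 above. When the counts were read 2 rows earlier in both lists, rho rose from 0.33 to 0.68 for numbers 27000 to 29999. For DE numbers 15000 to 17999, rho between DE and PP rose from 0.11 to 0.78 when the PP counts were read 1 row earlier. Between WT PP and A5-KO PP, rho was 0.84 for WT PP numbers 9000 to 11999 and 0.07 for 42000 to 44999. These shifts were the best found in a search that included no shift, so rho could not fall. The gain differed between bins, and for WT PP numbers 42000 to 44999 rho rose only from 0.07 to 0.17. No single shift served along a list. Of the 323 peaks, 276 had numbers of at least 27000 and 34 had numbers below 9000.

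**Figure D1:**
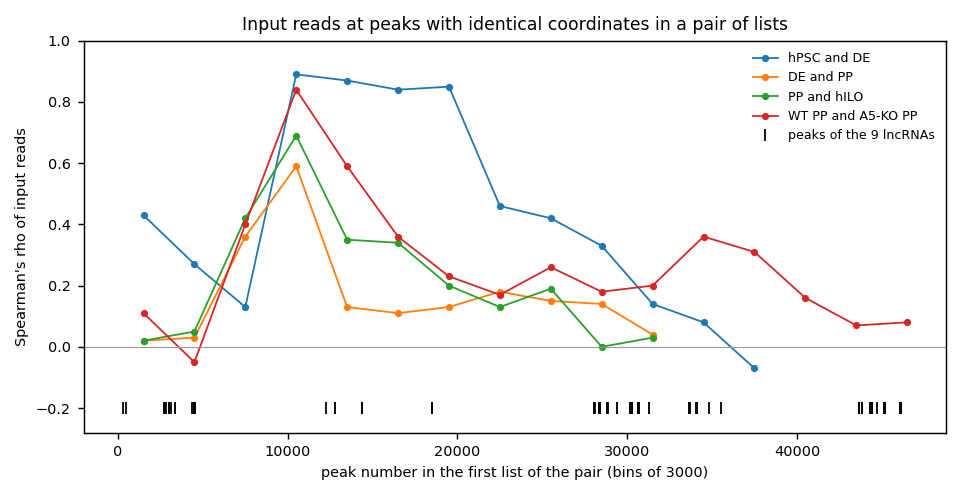
Spearman's rho of input reads (y axis) across peaks with identical coordinates in a pair of lists, against the peak number in the first list of the pair (x axis, bins of 3000 numbers). Each line is a pair of lists and black ticks mark the peaks of the 9 lncRNAs in the hPSC, DE, PP and WT PP lists, most of which lie where rho was below 0.4.

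Only OIP5-AS1 had peaks in the numbers where hPSC and DE were in register, 2 in hPSC and 3 in DE, and only 1 of these in each list lay on its exons. This was the spliced peak at the start of the gene (chr15:41284215-41285350), with the same ends in both lists. In hPSC it held 318 input and 3298 IP reads, with a deposited log2 enrichment of 1.88 against a list median of 1.74. In DE it held 371 input and 853 IP reads, with a log2 enrichment of 1.55 against a list median of 1.72. The counting errors were 0.08 and 0.09, and they cover counting error only. The peak was close to the middle of its list in both, at the 60.4th percentile in hPSC and the 37.7th in DE.

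The positions of the peaks do not rest on these columns, apart from any filter the authors applied to them. Some running numbers are absent from the lists, and they made up 0.136%, 1.42%, 4.23%, 3.86%, 9.51% and 4.72% of the numbers in list order. Within the runs of numbers on the lncRNAs, 14 numbers were absent from their list and 25 more were held by peaks of other genes. Among the 6 lncRNAs with peaks in every list, 14 of 410 absences of a region from a list (3.41%) lay beside an absent number. Whether peaks had been removed there was not tested. The identity of the populations was checked by the presence of peaks on marker genes. All 5 DE markers had a peak in DE, all 5 PP markers in PP, hILO, WT PP and A5-KO PP, and all 5 hILO markers in hILO, while 4 of 5 hPSC markers had one in hPSC and also in DE. Of the DE markers 3 or 4 of 5 had a peak in each list of a later stage, so these markers did not separate all lists by presence. Markers of fibroblasts or mesenchyme had a peak for 3 or 4 of 5 genes in every list, and their part in the results was not tested.

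MALAT1, NEAT1, NORAD, TUG1, OIP5-AS1 and KCNQ1OT1 had peaks in every list, LINC00261 in every list but hPSC, SNHG1 in WT PP and A5-KO PP alone, and GAS5 in none. Among 7651 GENCODE 44 lncRNA genes with a peak in any list, 9.63% had one in every list, 0.719% in every list but hPSC and 6.01% in the 2 lists of batch 2 alone. The 9 lncRNAs together held 25, 31, 32 and 63 peaks in the lists of batch 1 and 86 in each list of batch 2. Counting only the peaks that name a single gene left 2, 8, 12, 36, 60 and 58 of them in list order, since every peak of MALAT1, NEAT1, TUG1, OIP5-AS1 and SNHG1 also names another identifier. The whole lists held 36659, 32680, 29083, 31519, 43312 and 55219 peaks, so that the lncRNAs made up 0.0682%, 0.0949%, 0.11%, 0.2%, 0.199% and 0.156% of them. The share was nearly the same in hILO and WT PP, and lower in A5-KO PP than in WT PP. KCNQ1OT1, with 1, 1, 7, 31, 52 and 50 peaks, made up most of the difference in number between hPSC, DE and PP on the one side and hILO, WT PP and A5-KO PP on the other. TUG1 (7 to 11 peaks) and OIP5-AS1 (2 to 6) had overlapping numbers in both batches. MALAT1 and NORAD had more peaks in batch 2 than in any list of batch 1, and NEAT1 had fewer. A list is a set of peaks past a threshold, so a missing peak shows neither the absence of the RNA nor that of the mark, and RNA level and methylation cannot be told apart by presence alone.

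**Figure D2:**
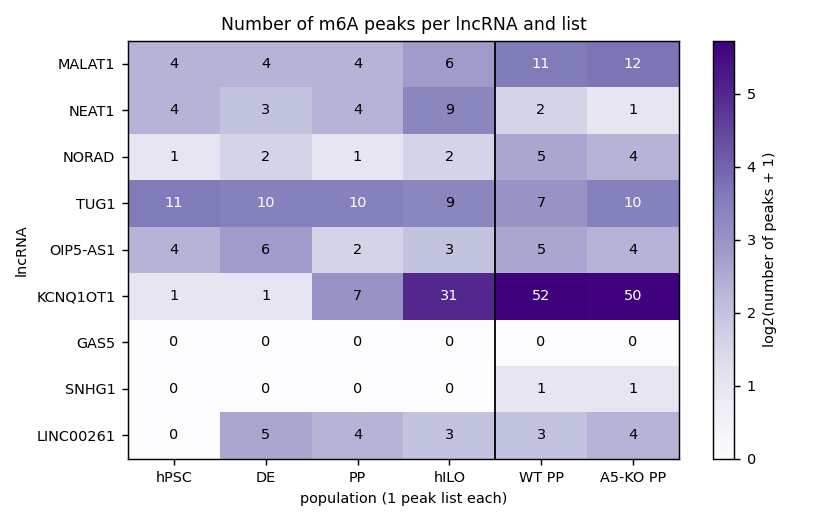
Number of peaks (printed in each cell, colour on a log2 scale) for each lncRNA (rows) in each of the 6 peak lists (columns), with a vertical line between batch 1 and batch 2. KCNQ1OT1 ran from 1 peak in hPSC to 52 in WT PP, and GAS5 had none.

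On MALAT1 (ENSG00000251562, chr11:65497640-65508073, plus strand, 10434 nt of exon in 1 piece) the peaks began in the 5′ part of the RNA and thinned out towards the 3′ end. There were 4, 4, 4 and 6 peaks in the lists of batch 1, and 11 (WT PP) and 12 (A5-KO PP) in batch 2. In list order they covered 17.7%, 19.2%, 14.6%, 27.8%, 44.3% and 42.6% of the RNA. Their region from nt 1349 to nt 3448 (chr11:65498988-65501087, 2100 nt) held peaks in all 6 lists, and 1300 nt of MALAT1 were covered in every list. A second region around the middle of the RNA, nt 4974 to nt 5598, was found in every list but PP. The 5′-most 4 regions, from nt 99 to nt 1173, were found in batch 2 alone. hILO was the only list of batch 1 with peaks beyond nt 5598, at nt 6674 to 6773 and in a region at nt 8124 to 8498 that it shared with WT PP and A5-KO PP. No list had a peak in the last stretch of the RNA, after nt 8498.

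NEAT1 (ENSG00000245532, chr11:65422774-65445540, plus strand, 22767 nt) has short and long isoforms with a common 5′ part, and its peaks lay mostly in that common part. It had 4, 3, 4 and 9 peaks in batch 1, and in batch 2 only 2 (WT PP) and 1 (A5-KO PP). hPSC, PP and hILO shared 4 regions within the first 2450 nt. Of these, the region at nt 1601 to 2025 (chr11:65424374-65424798) was also found in WT PP and A5-KO PP but not in DE, and the region at nt 2126 to 2450 was found in all 4 lists of batch 1 and in neither list of batch 2. Beyond nt 3425 only 1 of the 9 annotated transcripts, the long isoform, holds the peaks. There hILO had 3 peaks, at nt 16876 to 17025, within nt 17626 to 17950 and at nt 21476 to 21600. DE had 1, in the second of these regions, and WT PP had 1 elsewhere, at nt 12526 to 12600. No base of NEAT1 was covered in all 6 lists, and 89.2% of its length was covered in none.

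NORAD (ENSG00000260032, chr20:36045618-36051018, minus strand), a single unspliced transcript of 5401 nt, carried most of its covered bases in the 5′ part of the RNA. It had 1, 2, 1 and 2 peaks in batch 1, and in batch 2 it had 5 (WT PP) and 4 (A5-KO PP). The region from nt 77 to nt 1426 (chr20:36049593-36050942) was found in all 6 lists, with 475 nt covered in each of them. Within it, peaks covered from 475 nt in PP to 1325 nt in WT PP, with 1225 nt in hPSC and 1300 nt in A5-KO PP. A second region at nt 2227 to 2526 was found in hILO, WT PP and A5-KO PP. Short regions of 50 to 125 nt at nt 27 to 76, nt 2827 to 2876 and nt 4727 to 4851 were found in WT PP alone, and 1 at nt 2577 to 2651 in A5-KO PP alone. The region at nt 27 to 76 touches that at nt 77 to 1426 and was kept apart because they share no base.

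TUG1 (ENSG00000253352, chr22:30969245-30979395, plus strand, annotated as protein_coding in GENCODE 44, 10151 nt of merged exon) was the lncRNA with the most even pattern. It had 11, 10, 10, 9, 7 and 10 peaks in list order, covering from 31.3% of the merged exons in PP to 50.5% in A5-KO PP. Of its 10 regions 4 were found in all 6 lists, at nt 1426 to 1775, nt 1901 to 2600, nt 3726 to 4425 and nt 7126 to 9925. In all, 2325 nt (22.9%) were covered in every list, the highest such share among the 9 lncRNAs. The region at nt 6026 to 7025 was found in every list but WT PP, and in WT PP a running number was absent at that place. Regions at the very 5′ end (nt 1 to 225) and at nt 3101 to 3275 were found in both lists of batch 2 and in none of batch 1. None of the 20 annotated transcripts holds the first of these regions whole. The longest annotated transcript has 7474 nt, so positions and shares on TUG1 refer to merged exons and not to a single RNA.

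**Figure D3:**
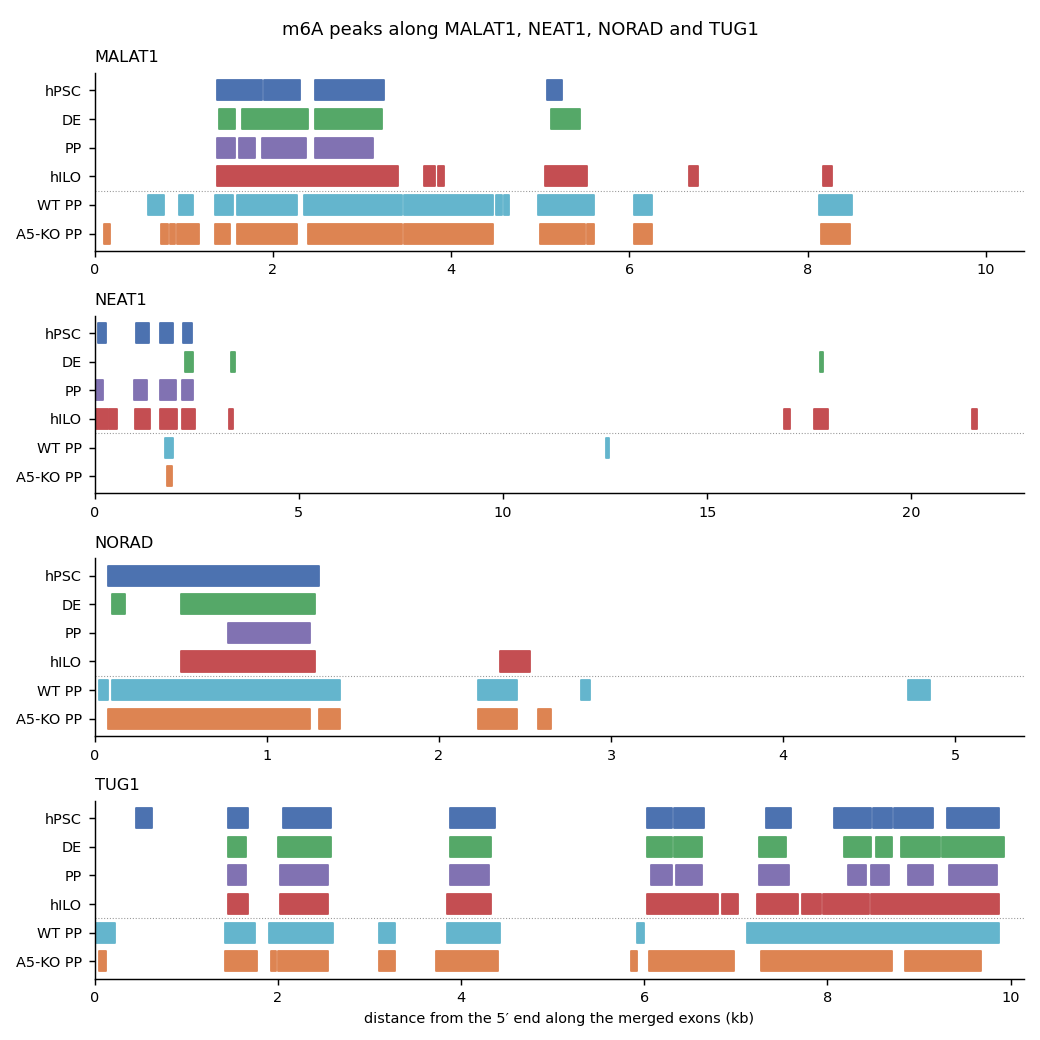
Peaks (bars) of the 6 lists (rows, colours) along MALAT1, NEAT1, NORAD and TUG1, with distance from the 5′ end along the merged exons in kb on the x axis and a dotted line between batch 1 and batch 2. The peaks of the 6 lists stack at nt 1349 to 3448 of MALAT1, in the 5′ part of NORAD and in 4 regions of TUG1.

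OIP5-AS1 (ENSG00000247556, chr15:41283958-41322392, plus strand, 16 merged exons, 22370 nt) had 4, 6, 2, 3, 5 and 4 peaks in list order. Of these 24 peaks 5 lay outside its exons, and these also carried the identifiers of NUSAP1, a neighbouring gene of the mitotic spindle, and of a gene listed as ENSG00000285920. For 5 spans that cross introns no GENCODE 44 transcript of the named genes gave a placement, and they were counted but not placed, 1 of them among those outside the exons. The spliced peak at the start of the gene ran from chr15:41284215 to between 41285325 and 41285350 in the 4 lists of batch 1, and WT PP (41284215 to 41285375) and A5-KO PP (41284265 to 41285375) had spans with nearly the same ends among those not placed. The other placed peaks lay together at nt 7174 to 8498. The region at nt 7174 to 7573 (chr15:41298276-41298675) held a placed peak in every list but A5-KO PP, where an unplaced span (41286347 to 41308748, also in WT PP) runs across it. The region at nt 8199 to 8498 held one in every list but PP.

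KCNQ1OT1 (ENSG00000269821, chr11:2597308-2700003, minus strand, 92625 nt of merged exon) had the widest range in number of peaks among the 9 lncRNAs. The single peak of hPSC (nt 3577 to 3801) and that of DE (nt 3627 to 3701) lay near the 5′ end, and PP had none there. The 7 peaks of PP, most of the 31 of hILO and most of the 52 of WT PP and 50 of A5-KO PP formed a cluster in the second part of the RNA. The median covered base was at nt 58514 for PP, nt 58339 for hILO, nt 58426 for WT PP and nt 56801 for A5-KO PP, that is, at 61.3% to 63.2% of the RNA. All 7 PP peaks were more than 50% covered in hILO, and all 775 nt of PP lay within the 7975 nt covered in hILO. The 6 lists together gave 65 regions of 50 to 1675 nt, with a median width of 175 nt, and 37 of them (56.9%) were found in 1 list alone. That share was near the 53.3% of 81850 regions built in the same way over all genes, and below the 64% over lncRNA genes. A stretch of 13825 nt (nt 7952 to 21776) and another of 9100 nt (nt 21852 to 30951), between the 5′ region and the cluster, had no peak in any list. By number of peaks KCNQ1OT1 ranked 1159th of 2562 lncRNA genes with a peak in hPSC and 1049th of 2458 in DE. With 1 peak it was there tied at the lowest count, ties taking the best rank. It ranked 40th in PP, 1st in both hILO and WT PP, and 2nd for A5-KO PP. These ranks do not allow for the length of this RNA, the longest of the 9. Per kb of exon it had 0.561 peaks in WT PP, below MALAT1 (1.05), NORAD (0.926) and TUG1 (0.69) and above the other lncRNAs. PP and WT PP are the same labelled stage, and their 7 and 52 peaks show how far the lists of the 2 batches differ on this RNA. KCNQ1OT1 lies antisense to KCNQ1. The authors aligned reads with a strand setting, and all KCNQ1OT1 peaks were listed under KCNQ1OT1 alone.

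LINC00261 (ENSG00000259974, chr20:22547663-22578642, minus strand, 9 merged exons, 6122 nt) had no peak in hPSC and 5, 4, 3, 3 and 4 peaks in the other lists. From DE onwards the peaks covered overlapping parts of the RNA, of 1925, 1800, 1875, 2625 and 2750 nt. One region, nt 465 to 2589 (chr20:22563113-22566803), was found in all 5 lists, and 1300 nt of it in 1 run, nt 1015 to 2314, were covered in each. DE and PP shared 1625 nt, which was 84.4% of the bases of DE and 90.3% of those of PP. The region at nt 4765 to 5114 also held no placed peak in WT PP, while 325 nt of it were covered in A5-KO PP. This region and that at nt 3090 to 3564 held no placed peak in hILO. In that list a running number was absent between the peak at nt 965 to 2564 and a spliced span that could not be placed, whose 5′ end (chr20:22560912) lay in the region at nt 4765 to 5114. The 3 genes whose covered bases were spread most like those of LINC00261 over the 6 lists, among 14460 genes with at least 500 covered nt summed over the lists, were NBPF15 (Euclidean distance of the shares 0.0246), TAF4 (0.0347) and GPR180 (0.035). These names depended on how unplaced spans were treated.

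**Figure D4:**
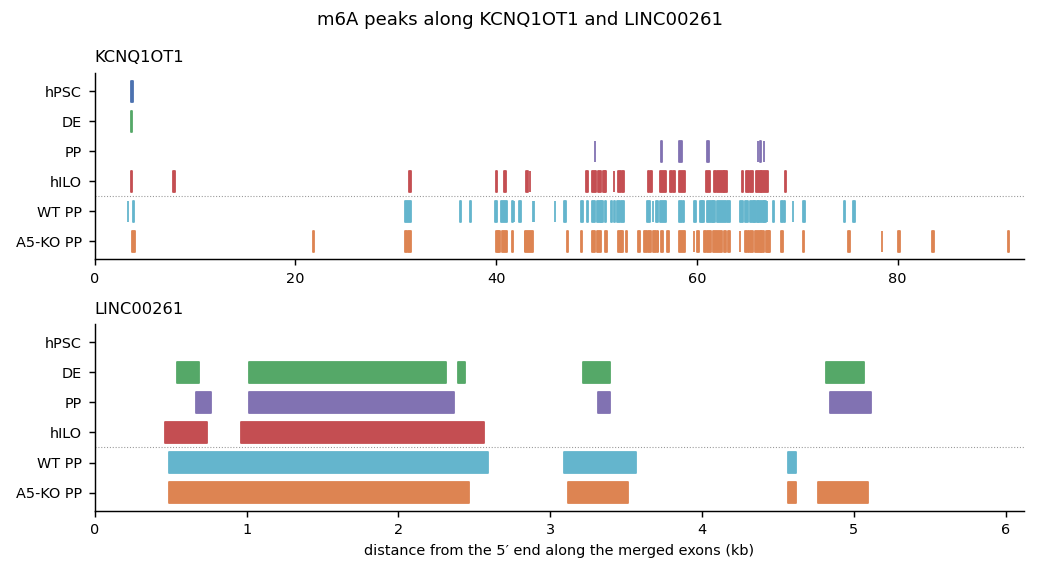
Peaks of the 6 lists (rows, colours) along KCNQ1OT1 and LINC00261, with distance from the 5′ end along the merged exons in kb on the x axis. Bars are peaks and spliced peaks that could not be placed are not drawn. KCNQ1OT1 shows the isolated 5′ region and the cluster around 58 kb, and LINC00261 has no bar in hPSC.

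The snoRNA hosts among the 9 stood apart from the rest. GAS5 (ENSG00000234741, chr1:173858559-173868882, minus strand) had no peak in any list. SNHG1 (ENSG00000255717, chr11:62851978-62855953, minus strand) had a single 200 nt peak in WT PP and the identical one in A5-KO PP (chr11:62852834-62853033), and none in the poly(A)-selected lists of batch 1. The snoRNA SNORD22 overlaps 124 of these 200 nt, and 20 of 80 annotated SNHG1 transcripts hold all 200 nt as exon, the snoRNA part included. Other snoRNA hosts were not alike in this. Of 12 listed, 7 had a peak in every list and only ZFAS1 had none. Of 24 other known lncRNAs 11 had a peak in every list and 4 had none, H19, HOTAIR, FENDRR and CRNDE. By total number of peaks SNHG14 (108), FTX (76) and PSMA3-AS1 (54) led these listed lncRNAs, against 142 for KCNQ1OT1 and 57 for TUG1.

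The overlap between lists was read against that of all peaks. A peak was taken as shared when over 50% of its exonic bases were covered by peaks of the other list on the same strand, with unplaced spans kept on the merged exons. In each of the other 5 lists 12 of 25 hPSC peaks on the lncRNAs were shared, beside 17.5% of all hPSC peaks. The count was 14 of 31 in DE (21.1% of all peaks), 15 of 32 in PP (25.8%) and 9 of 63 in hILO (20.8%). It was 8 of 86 in WT PP (9.68%) and 7 of 86 in A5-KO PP (9.65%). The share was thus 45.2% to 48.0% in the first 3 lists and 8.14% to 14.3% in the other 3, where KCNQ1OT1 supplies at least 31 peaks per list and none of them was shared by all. TUG1 alone gave 7 of the 12 peaks in hPSC, 8 of the 14 in DE and 8 of the 15 in PP. This contrast with all peaks depended on the rule. When over 50% of both peaks had to overlap, 3 or 4 lncRNA peaks per list were shared with each of the others, or 12.0%, 12.9%, 9.38%, 6.35%, 4.65% and 3.49% in list order, beside 8.37%, 9.23%, 9.76%, 9.36%, 5.98% and 5.13% of all peaks. The lncRNA share was then close to that of all peaks, and below it in 4 of the 6 lists.

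The comparison of WT PP with A5-KO PP sets the peaks of progenitor cultures with and without ALKBH5 side by side. The paper reports that knockout cultures at this stage held fewer cells positive for both progenitor markers it stained, and more albumin-positive cells. Cell composition, RNA level and methylation therefore cannot be told apart by the presence of peaks. Both lists held 86 peaks on the lncRNAs, which was 0.199% of the 43312 peaks of WT PP and 0.156% of the 55219 peaks of A5-KO PP. The covered bases overlapped more on MALAT1, NORAD and LINC00261 than on KCNQ1OT1. Of 86 WT PP peaks 52 (60.5%) were shared with A5-KO PP, beside 49.8% of all WT PP peaks. Of 86 A5-KO PP peaks 54 (62.8%) were shared with WT PP, beside 46.7% of all. In bases, WT PP and A5-KO PP shared 4175 nt of MALAT1, which was 90.3% of the WT PP bases and 93.8% of the A5-KO PP bases. They shared 1500 nt of NORAD (84.5% and 93.8%), 2425 nt of LINC00261 (92.4% and 88.2%) and 3975 nt of TUG1 (82.4% and 77.6%). On KCNQ1OT1 they shared 6650 nt, 57.6% of the WT PP and 59.1% of the A5-KO PP bases, although the covered totals of 11550 nt and 11250 nt were close. Of its regions 26 held peaks of both genotypes, 19 of WT PP and not A5-KO PP, and 15 of A5-KO PP and not WT PP. By peaks, 28 of 52 in WT PP (53.8%) and 26 of 50 in A5-KO PP (52.0%) were shared, near the 49.8% and 46.7% of all peaks. Summed over all genes, 61.4% of the WT PP bases and 61.9% of the A5-KO PP bases were shared (53.3% and 33.5% over lncRNA genes), so KCNQ1OT1 lay close to all genes by both measures. On NEAT1 the 125 nt of A5-KO PP lay within the 275 nt of WT PP (45.5% of these), and on OIP5-AS1 the 250 nt of A5-KO PP lay within the 700 nt of WT PP (35.7%), with unplaced spans left out. With these spans kept, 4 of 5 OIP5-AS1 peaks of WT PP and 3 of 4 of A5-KO PP were shared, 1 of them the identical unplaced span, so no rank among the lncRNAs was read from its covered bases. With 1 pooled list per genotype these differences have no replicate check, and whether methylation rose or fell at the shared peaks was not read from the columns described above.

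The sequence under the peaks was richer in DRACH than the rest of the same RNAs for 7 of the 8 lncRNAs with a peak, a feature that the choice of RNAs did not use. The same order held for 67.6% of 24175 genes with a placed peak, and over all genes there were 22.0 sites per kb inside and 18.5 outside, a ratio of 1.19 (1.15 over lncRNA genes, 58.2% of which had that order). On the transcript strand there were 28.4 DRACH sites per kb inside the peaks of any list and 19.8 outside, a ratio of 1.44, while the opposite strand had 14.2 inside and 18.5 outside. Without KCNQ1OT1 the ratio was 1.3. KCNQ1OT1 had the highest density, with 35.7 sites per kb inside its peaks and 22.2 outside, and its opposite strand held 8.9 inside and 15.7 outside. TUG1 followed with 26.1 and 17.0. MALAT1 (19.7 and 17.5) and NEAT1 (19.2 and 15.7) differed less, and on NORAD the order was turned, with 15.9 inside and 17.7 outside. Inside the peaks of NORAD the opposite strand held more sites (20.0 per kb) than the transcript strand, and so did that of SNHG1 (35 against 25 per kb, the latter from 5 sites in 200 nt). GGAC, the core of a strong DRACH site, gave 3.45 sites per kb inside and 2.61 outside. It was denser inside the peaks of NORAD (4.62 and 2.61), TUG1 (3.82 and 1.81), OIP5-AS1 (3.16 and 1.54), KCNQ1OT1 (3.89 and 2.9) and SNHG1, where the peak holds 1 site, but not of MALAT1 (1.95 and 2.83), NEAT1 (2.04 and 2.61) or LINC00261 (3.0 and 4.8). Bases covered by 1 to 2 lists had 28.1 DRACH sites per kb, those covered by 3 to 4 lists 31.6 and those covered by 5 to 6 lists 25.4. These bins hold different RNAs, with none of the 7550 nt covered by 5 to 6 lists on KCNQ1OT1. Without KCNQ1OT1 the densities were 19.9, 19.6 and 25.4, so the order of the bins depended on that RNA. The opposite strand then held 19.7, 19.6 and 17.5 sites per kb in the same bins. At least 1 DRACH site was held by 92.9% to 98.4% of the lncRNA peaks of a list, beside 88.5% to 92.4% of all placed peaks, and the lncRNA peaks were as long or longer, with medians of 175 to 275 nt against 150 to 175 nt. The match is one of letters and does not mark a methylated base.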

How the data were processed

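Peak lists of 6 populations, each called on 2 IP and 2 input libraries, were analysed. The authors used fastp for trimming, HISAT2 with a strand setting for alignment (GRCh38) and exomePeak2 for peak calling. The annotation they used is not given in the sources used here. Per the file headers each peak has a count of IP reads, a count of input reads, a log2 fold change and a p-value. The counts were taken as pooled over the libraries of a population, and the fold change as IP over input. The deposited counts, log2 values and p-values were used for the check of row register and for 1 peak of OIP5-AS1. Depth per library was not used here.

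Spans were cut to GENCODE 44 exons. Spans that were no multiple of the 25 nt step were placed on a transcript holding both ends and giving such a multiple, and between 9.09% (PP) and 16.7% (A5-KO PP) of a list stayed unplaced. Regions are overlapping peaks of the 6 lists merged along the RNA, for the lncRNAs and for all genes alike. Regions that touch without overlapping were kept apart and counted separately. Overlap above 50% of exonic length counted as shared. DRACH and GGAC were searched on both strands, overlapping matches kept. The interval code and the register check were tested on simulated data. Python 3.11.15, pandas 2.3.3, scipy 1.17.1 and pysam 0.24.0 were used.

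All 9 lncRNAs were to be named, each with the region in most lists. Ties were to be broken by log2 enrichment, and covered bases replaced it because of the register. Of the other listed lncRNAs, the 3 with the most peaks and those with none were named. The lncRNAs and lists were chosen with earlier results of these data known, and the register range was set after seeing the data. The planned comparison of log2 enrichment between A5-KO PP and WT PP was not made for the same reason. A further sequence window is not reported here.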

Additional observations from a re-analysis of the deposited data

How the results depend on the processing

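Counting only peaks that name a single gene left 2 of 25 lncRNA peaks in hPSC, 8 of 31 in DE, 12 of 32 in PP and 36 of 63 for hILO, because every peak of MALAT1, NEAT1, TUG1, OIP5-AS1 and SNHG1 names another identifier too. In WT PP and A5-KO PP the counts stayed within 1.5 times. With a reciprocal rule the peaks shared with each of the other lists fell to 3 (hPSC, PP and A5-KO PP) or 4 (DE, hILO and WT PP), 3.49% to 12.9% of the lncRNA peaks beside 5.13% to 9.76% of all peaks, so the higher share of the first 3 lists was nearly lost. Any overlap gave 11 in A5-KO PP against 7, and any overlap or genomic spans kept the other counts within 1.5 times. GGAC in place of DRACH gave a density ratio of 1.32 against 1.44, and leaving out MALAT1 and NEAT1 gave 1.48. Merging regions within 100 nt gave 79 against 113 regions and 7 against 6 in all lists. Leaving unplaced spans out of both lists, also chosen after seeing the data, gave 10, 12, 13, 7, 7 and 7 shared peaks in list order. With unplaced spans kept, a setting chosen after seeing the data, 0 of the 3 genes nearest to LINC00261 were retained, and GATA4, SOAT1 and NBPF9 took their place. The thresholds on IP/input, p and input reads, and the comparison of log2 enrichment between WT PP and A5-KO PP, were not run because these columns stand out of register at the lncRNA peaks.

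No paired analysis was possible because each list pools the libraries of a population, and for the same reason the replicate block and the leave-one-out settings were not run. With 1 list per population, depth and calling thresholds limit what a missing peak says.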
